A study of Mus musculus and Homo sapiens with 180 samples.

Results

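Gene expression was compared between HuDEP-2 cells that were pretreated with the DOT1L inhibitor SGC0946 and cells that were pretreated with its solvent DMSO, after both had been moved into erythroid differentiation medium. The comparison rests on 6 of the 180 libraries of the series, 3 from SGC0946 and 3 from DMSO pretreatment, which were chosen by their labels. The question it addresses is whether blocking DOT1L before a differentiation cue alters which genes are turned down, or kept on, once the cue arrives. HuDEP-2 is an immortalised erythroid progenitor line made from human umbilical cord blood with inducible viral oncogenes, so every library describes the same cell source. Pretreatment lasted 7 days in expansion medium that held stem cell factor, erythropoietin, dexamethasone and doxycycline, with 5 μM SGC0946 in the treated cells. Differentiation medium held erythropoietin, stem cell factor, interleukin-3, transferrin loaded with iron, heparin, serum and doxycycline, and whether the inhibitor stayed in it is not stated in the sources used here. The labels give 72 h after the 7 days, whereas the schematic of the experiment places RNA sampling on day 2. The same experiment held 3 SGC0946 and 3 DMSO libraries of cells that were not differentiated. The labels give these the same times as the differentiated cells, so by label they are not an earlier time point. A separate experiment held 4 SGC0946 and 4 DMSO libraries of undifferentiated HuDEP-2 cells after 168 h of treatment.

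DOT1L is the enzyme that methylates H3K79, a mark found along the bodies of transcribed genes. Erythroid progenitors that respond to erythropoietin shut down progenitor genes, leave the cell cycle after a few divisions, and fill with haemoglobin, whose chains come from an alpha-like and a beta-like globin cluster with embryonic, fetal and adult members. In adult erythroid cells BCL11A and ZBTB7A hold the fetal gamma globin genes HBG1 and HBG2 silent, and HuDEP-2 is used to study that switch because it makes mainly adult globin.

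The libraries capture 3′ ends, which makes counts independent of transcript length, and levels are given in CPM, the count of a gene scaled to the size of its library. The DMSO differentiated libraries held 9409578 to 13681475 counts and the SGC0946 differentiated libraries 5583064 to 7104139, so that low genes were measured less precisely after SGC0946. A total of 3 counts over a group, which a count of 0 still allows, came to 0.0920 CPM for the DMSO and 0.167 CPM for the SGC0946 differentiated libraries, counting error only. Globin transcripts took 8.16% to 9.40% of the counts after DMSO and 7.93% to 8.83% after SGC0946, against 3.18% to 3.79% in undifferentiated cells, and mitochondrial transcripts took 2.27% to 2.85% and 2.75% to 3.31%. In each group replicate 1 stood further from replicates 2 and 3 than those did from each other. The replicate numbers paired the libraries, so a second fit with the replicate number as a block, called the paired fit here, is given where it changes a call. Where leaving out a library ended the call of a named gene, the highest adjusted p is given with the library left out. The number of the 12 libraries whose removal ended the call is given too. These fits were made without the block, so their spread holds the differences between replicate numbers. The paired fit of all 12 libraries ended no call of a named gene. Nothing in the labels says that replicates were separate cultures, the study's methods have HuDEP-2 cells seeded in duplicate although there are 3 libraries a group, and p-values then measure only the spread between these libraries.

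The differentiated label was checked against genes that mark erythroid maturation, in the DMSO libraries. ALAS2, the first enzyme of haem synthesis in red cells, was at 164, 240.1 and 208 CPM in undifferentiated and 707, 1086 and 961 CPM in differentiated cells (log2 fold change 2.17, adjusted p = 3.36e-06). The anion exchanger gene SLC4A1 rose by 2.22 on the log2 scale (adjusted p = 6.46e-09), and GATA2, a progenitor factor that maturing cells turn off, went from 162, 158 and 143 CPM to 23.2, 21.8 and 23.6 CPM (log2 fold change −2.76, adjusted p = 4.59e-09). The changes of these 3 genes went the way that erythroid maturation is known to take. In all, 1548 of 9848 genes (15.7%) differed between differentiated and undifferentiated DMSO cells, 800 higher (8.12%) and 748 lower (7.6%).

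Between SGC0946 and DMSO pretreatment, 825 of the 9848 genes tested differed in differentiated cells (8.38%), 627 of them higher (6.37%) and 198 lower (2.01%) after SGC0946, at an adjusted p under 0.05 by edgeR's quasi-likelihood test. The paired fit called 2455 genes (24.9%), 1268 higher (12.9%) and 1187 lower (12.1%), so that rises exceeded falls clearly only without the block. These shares of all genes apply to each count of listed genes given below. The rises were larger than the falls. Among the called genes the median log2 fold change was 1.37 for rises and −0.58 for falls, 413 rises and 25 falls passed a log2 fold change of 1, and 196 rises and 3 falls passed 2. Many rises were of genes that are low in these cells, since 148 had a mean under 1 CPM after DMSO and 292 a mean under 10 CPM after SGC0946. The 3 SGC0946 libraries did not overlap the 3 DMSO libraries in 820 of the 825 called genes, against 2551 of all genes tested (25.9%). Of single libraries, leaving out DMSO differentiated replicate 3 brought the count down to 526 and SGC0946 differentiated replicate 3 to 527, and 896 genes were called without replicate 1 of every group.

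Among genes that averaged 10 CPM or more after SGC0946, NMU rose most. It lies on chromosome 4 of GRCh38 from 55595229 to 55636698 and encodes the secreted peptide neuromedin U. NMU was at 2.40, 1.81 and 2.96 CPM in the DMSO libraries and 217, 132 and 182 CPM in the SGC0946 libraries. Each SGC0946 library stood over 40 times above every DMSO library, a 72.2-fold difference (log2 fold change 6.17, SE 0.27, adjusted p = 1.54e-09). SERPINB6, an intracellular inhibitor of serine proteases, was at 0.0961, 0.427 and 0.0780 CPM in the DMSO libraries and 13.8, 11.9 and 12.8 CPM in the SGC0946 libraries (log2 fold change 6.01, SE 0.49, adjusted p = 7.27e-07). BEX3, a small adaptor protein gene on the X chromosome, was at 0.769, 0.747 and 0.624 CPM in the DMSO libraries and 46.7, 28.9 and 38.1 CPM in the SGC0946 libraries (log2 fold change 5.72, SE 0.31, adjusted p = 1.05e-08). Both genes were close to undetected in these DMSO libraries, with 6 and 23 counts over the 3, and clearly expressed in each SGC0946 library. In the separate 168 h experiment, however, SERPINB6 averaged 13.1 CPM after DMSO and 53.1 CPM after SGC0946 (log2 fold change 2.02, adjusted p = 4.80e-10). Further genes switched from near silence were CPVL, a carboxypeptidase (5.12), ALDH1A1, a retinaldehyde dehydrogenase (4.90), the neighbouring mitochondrial creatine kinase genes CKMT1A and CKMT1B (4.44 and 4.02), which are near-identical copies whose reads can be split between them, TNNT1, a troponin of slow skeletal muscle (4.06), and CTSE, the protease cathepsin E (3.97). Further large rises at 10 CPM or more after SGC0946 were those of PTGES, a prostaglandin E synthase, CYP17A1, a steroid hydroxylase, SIGLEC6, a sialic acid-binding lectin, IGFL2 and PITX1, a homeodomain factor, at log2 fold changes from 3.30 to 3.88. The adjusted p of these genes ranged from 1.54e-09 for NMU to 1.74e-05 for IGFL2. All genes named in this paragraph had also risen in undifferentiated cells of the same experiment. They were CPVL (5.35), BEX3 (5.06), SERPINB6 (4.79), ALDH1A1 (4.45), PTGES (3.93), CKMT1A (3.86), CKMT1B (3.64), NMU (3.64), CTSE (3.30), TNNT1 (3.20), SIGLEC6 (2.84), IGFL2 (2.53), PITX1 (2.31) and CYP17A1 (2.23). Without the block the difference between the states passed the threshold only for NMU, as given below. In the paired fit it also passed for CYP17A1 (1.55, adjusted p = 0.22, and 0.00422 paired) and PITX1 (0.99, adjusted p = 0.549, and 0.0308 paired). BEX3 averaged 55.6 CPM after SGC0946 in undifferentiated and 37.9 CPM in differentiated cells.

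**Figure D1:**
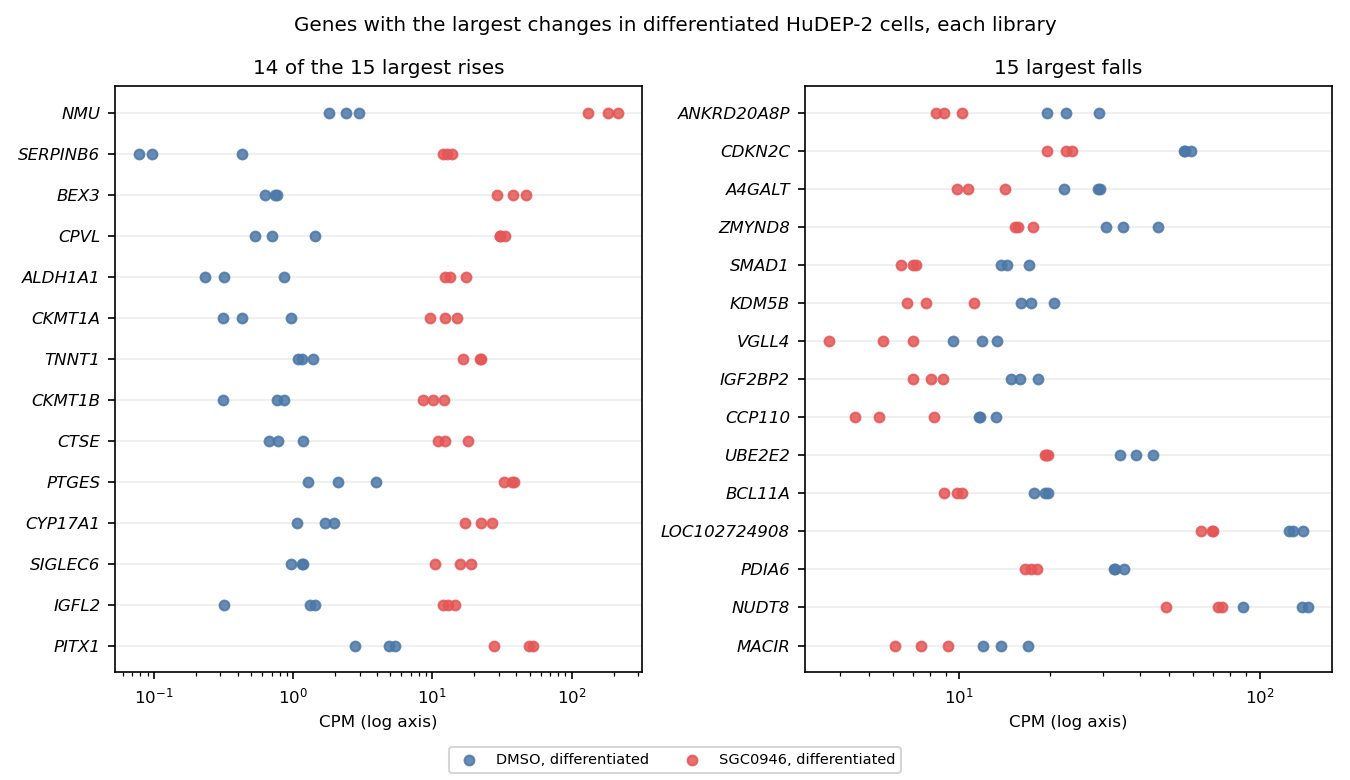
CPM of 14 of the 15 genes with the largest rises (left) and the 15 with the largest falls (right) among called genes whose groups do not overlap and whose higher group averages 10 CPM or more, in each DMSO (blue) and SGC0946 (red) differentiated library, on log axes. NMU stands apart on the left, at 132 to 217 CPM after SGC0946 against at most 2.96 CPM after DMSO, while the falls on the right are about 2-fold.

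The falls were smaller. CDKN2C, an inhibitor of the cyclin D-dependent kinases, on chromosome 1 from 50960745 to 50974634, was at 56.0, 59.2 and 56.2 CPM in the DMSO libraries and 19.6, 23.7 and 22.7 CPM in the SGC0946 libraries. The highest SGC0946 library was below the lowest DMSO library by more than 30 CPM (log2 fold change −1.38, SE 0.13, adjusted p = 2.76e-06). A4GALT, a galactosyltransferase that makes glycolipid antigens of a red cell blood group, was at 22.3, 29.3 and 29.0 CPM in the DMSO libraries and 10.7, 14.2 and 9.85 CPM in the SGC0946 libraries (log2 fold change −1.22, SE 0.19, adjusted p = 4.60e-04). Genes of chromatin and signalling proteins also fell, at no more than 37.2 CPM after DMSO. They were ZMYND8, a reader of histone acetylation (−1.20, adjusted p = 5.70e-04), KDM5B, an H3K4 demethylase (−1.08, adjusted p = 0.00275), SMAD1, which carries bone morphogenetic protein signals (−1.14, adjusted p = 0.00275), and VGLL4, a cofactor of TEAD factors (−1.08, adjusted p = 0.0345). VGLL4 lost its call when a library was left out (adjusted p = 0.128 without SGC0946 differentiated replicate 1, 5 of 12), as did CCP110, a centriole cap protein (−1.02, adjusted p = 0.0412, then 0.192 without SGC0946 differentiated replicate 3, 7 of 12), and NUDT8 (−0.92, adjusted p = 0.0237, then 0.109 without DMSO differentiated replicate 3, 4 of 12). The protein disulfide isomerase gene PDIA6 (−0.95) and MACIR (−0.91) fell by about as much, and the ubiquitin-conjugating enzyme gene UBE2E2 went from 39.0 to 19.4 CPM on average (adjusted p = 3.73e-04). ANKRD20A8P (−1.38) is a pseudogene with near copies elsewhere, and its reads and those of LOC102724908 (−0.96) are uncertain for that reason.

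By level, the most abundant called rises were ATP6, a mitochondrially encoded subunit of ATP synthase, APOC1, an apolipoprotein, and TIMP1, an inhibitor of metalloproteases. APOC1 was at 382, 327 and 429.9 CPM in the DMSO libraries and 2339, 2028 and 2317 CPM in the SGC0946 libraries, a 5.87-fold rise (log2 fold change 2.55, SE 0.13, adjusted p = 6.15e-09). TIMP1 was at 802, 802 and 827 CPM in the DMSO libraries and 1716, 1633 and 1734 CPM in the SGC0946 libraries (log2 fold change 1.06, SE 0.10, adjusted p = 3.25e-06). Both rises were well outside the spread of the libraries. ATP6 rose by 0.44 (adjusted p = 0.0473), a call that ended when a library was left out (adjusted p = 0.183 without DMSO differentiated replicate 2, 6 of 12), and the other 12 of the 13 mitochondrial messenger RNAs did not pass the threshold. The paired fit called 5 of the 13 higher and 3 lower, against 12.9% and 12.1% of all genes. The most abundant falls were TUBA1B, an alpha tubulin (−0.46, adjusted p = 0.0113), MTDH (−0.45, adjusted p = 0.0224) and ATP5F1B, another ATP synthase subunit (−0.42, adjusted p = 0.0218). Each of these 3 lost its call when a library was left out, at an adjusted p of 0.0659 without SGC0946 differentiated replicate 3 (2 of 12), 0.113 without DMSO differentiated replicate 3 (4 of 12) and 0.104 without SGC0946 differentiated replicate 3 (3 of 12), respectively.

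Globin genes divided into members that rose several-fold and members that were not called higher without the block. Of the 10 alpha-like and beta-like globin genes, 5 rose and none fell, against 6.37% and 2.01% of all genes, and the median log2 fold change was 1.18 against −0.00 over all genes. The 5 were the fetal genes HBG1 and HBG2, the embryonic genes HBE1 and HBZ, and HBD, a minor adult gene. The paired fit called 8, with HBQ1 higher and both alpha globin genes lower. HBG1 and HBG2 encode nearly the same protein and their transcripts can share reads, so the split between them is uncertain.

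HBG2 was at 149, 96.6 and 109 CPM in the DMSO libraries and 1228, 828 and 861 CPM in the SGC0946 libraries, an 8.22-fold difference (log2 fold change 3.04, SE 0.20, adjusted p = 8.59e-08). HBG1 was at 98.1, 76.3 and 84.0 CPM in the DMSO libraries and 720.5, 529 and 634 CPM in the SGC0946 libraries, a 7.29-fold difference (log2 fold change 2.87, SE 0.18, adjusted p = 5.14e-08). For both gamma globin genes the lowest SGC0946 library was over 5 times the highest DMSO library. HBD was at 519, 404 and 542 CPM in the DMSO libraries and 2164, 1738 and 2140.4 CPM in the SGC0946 libraries (log2 fold change 2.04, SE 0.16, adjusted p = 5.27e-07). The embryonic alpha-like gene HBZ was at 9.61, 15.9 and 17.8 CPM in the DMSO libraries and 56.6, 84.8 and 100.4 CPM in the SGC0946 libraries (log2 fold change 2.48, SE 0.23, adjusted p = 2.50e-06). The embryonic beta-like gene HBE1 stayed low, at 0.577, 0.533 and 1.17 CPM in the DMSO libraries and 4.19, 2.87 and 4.78 CPM in the SGC0946 libraries, and its rise rested on 26 and 72 counts (log2 fold change 2.32, SE 0.41, adjusted p = 0.00164). In each of these 3 genes the SGC0946 libraries lay above all DMSO libraries.

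HBB, HBA1, HBA2, HBM and HBQ1 were not called higher without the block. HBB, the adult beta globin gene, was at 65175, 47288 and 60339.9 CPM in the DMSO libraries and 66775, 49579 and 59972 CPM in the SGC0946 libraries, and the groups overlapped (log2 fold change 0.03, SE 0.17, adjusted p = 0.953). HBA1, one of the 2 adult alpha globin genes, was at 7327, 7229 and 8414 CPM in the DMSO libraries and 5359, 5588 and 6297 CPM in the SGC0946 libraries (log2 fold change −0.41, SE 0.13, adjusted p = 0.0557). Its libraries did not overlap, and the paired fit called it lower (adjusted p = 1.32e-16). Without replicate 1 of every group HBA1 was also called lower (adjusted p = 0.0361). HBA2, its near-identical neighbour, was at 19596, 25581 and 29164 CPM in the DMSO libraries and 14433, 19782 and 21792 CPM in the SGC0946 libraries (log2 fold change −0.41, SE 0.21, adjusted p = 0.283), and the paired fit called it lower as well (adjusted p = 1.68e-19). Within each replicate number HBA2 was lower after SGC0946, although the groups overlapped. HBM, an alpha-like gene of little protein output, was at 701, 914 and 1284 CPM in the DMSO libraries and 694, 1034 and 1339.5 CPM in the SGC0946 libraries (0.08, adjusted p = 0.916). HBQ1, the theta globin gene, was at 284, 329 and 379 CPM in the DMSO libraries and 341, 414 and 484 CPM in the SGC0946 libraries (log2 fold change 0.32, adjusted p = 0.397, and 2.63e-06 in the paired fit).

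**Figure D2:**
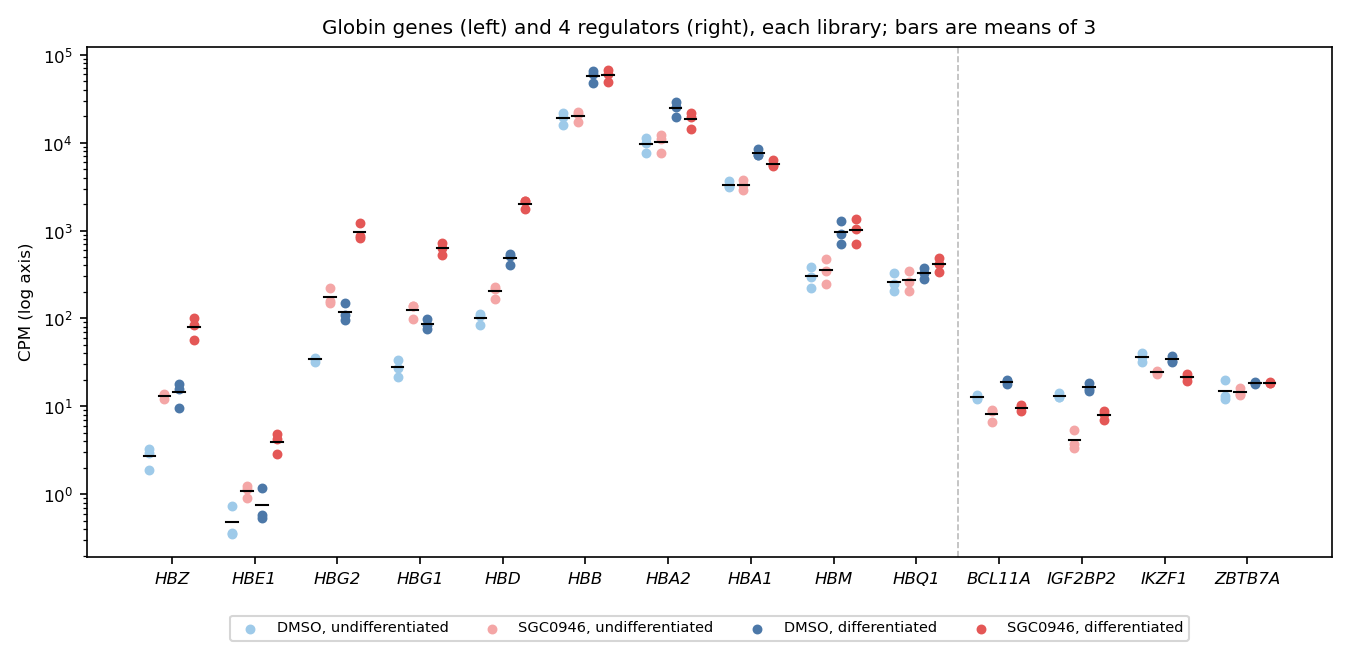
CPM of the 10 globin genes (left of the dashed line) and of 4 regulators (right) in each of the 12 libraries of the experiment, on a log axis, with the mean of each group of 3 as a bar. In differentiated cells HBZ, HBE1, HBG2, HBG1 and HBD lie higher after SGC0946 (dark red) than after DMSO (dark blue), HBB overlaps, and BCL11A, IGF2BP2 and IKZF1 lie lower.

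Of the regulators of the fetal globin genes, 3 of the 16 tested fell and none rose, and the paired fit called 5 lower and 3 higher. Of all genes tested 2.01% were called lower, and 12.1% lower and 12.9% higher in the paired fit. BCL11A, on chromosome 2 from 60450520 to 60554467, was at 19.8, 19.3 and 17.7 CPM in the DMSO libraries and 8.91, 10.2 and 9.85 CPM in the SGC0946 libraries. Each SGC0946 library lay well below every DMSO library (log2 fold change −0.97, SE 0.16, adjusted p = 8.00e-04). IGF2BP2, an RNA-binding protein of the fetal programme in the LIN28B and let-7 pathway, was at 14.9, 18.3 and 15.9 CPM in the DMSO libraries and 6.99, 8.80 and 8.06 CPM in the SGC0946 libraries (log2 fold change −1.04, SE 0.18, adjusted p = 0.00146). HMGA2, another gene of that programme, was at 1.63, 1.07 and 1.95 CPM after DMSO and had 1 count in all 3 SGC0946 libraries. ZBTB7A, the other main repressor of gamma globin, was at 18.2, 17.8 and 18.8 CPM in the DMSO libraries and 18.3, 18.7 and 18.4 CPM in the SGC0946 libraries and did not pass the threshold (log2 fold change 0.02, SE 0.17, adjusted p = 0.975). Of the 2 repressors, then, only BCL11A was called. KLF1, the erythroid factor that drives HBB and BCL11A, was at 1868, 2258 and 2179 CPM in the DMSO libraries and 1517, 1777 and 1688 CPM in the SGC0946 libraries (log2 fold change −0.34, adjusted p = 0.147, and 3.86e-11 in the paired fit). MYB, a progenitor factor that also holds gamma globin down, was at 29.5, 26.3 and 25.0 CPM in the DMSO libraries and 37.6, 34.0 and 37.3 CPM in the SGC0946 libraries (log2 fold change 0.43, adjusted p = 0.1, and 0.00221 in the paired fit).

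Among erythroid transcription factors more broadly, BCL11A and IKZF1 fell out of 20 tested and none rose (paired fit, 8 lower and 2 higher). Over all genes 2.01% were called lower, and 12.1% lower and 12.9% higher in the paired fit. IKZF1, the lymphoid and erythroid factor Ikaros, was at 32.8, 37.2 and 32.2 CPM in the DMSO libraries and 23.4, 19.4 and 21.5 CPM in the SGC0946 libraries (log2 fold change −0.67, SE 0.13, adjusted p = 0.0039). GATA1, the master factor of red cells, was at 369, 501 and 453 CPM in the DMSO libraries and 319.6, 459 and 394 CPM in the SGC0946 libraries. Its groups overlapped, and the log2 fold change of −0.18 passed the threshold only in the paired fit (adjusted p = 0.681, and 0.00391 paired). GATA2 was at 23.2, 21.8 and 23.6 CPM in the DMSO libraries and 14.7, 16.5 and 19.1 CPM in the SGC0946 libraries (log2 fold change −0.44, adjusted p = 0.0596, and 0.00395 paired).

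Genes of haemoglobin assembly and of the mature red cell mostly did not differ beyond the threshold. None of the 11 tested genes of haem synthesis rose or fell (median log2 fold change −0.08), and the paired fit called 2 higher and 2 lower. Over all genes 6.37% rose and 2.01% fell, and the paired fit called 12.9% higher and 12.1% lower. ALAS2 was at 707, 1086 and 961 CPM in the DMSO libraries and 703, 1066 and 891 CPM in the SGC0946 libraries, nearly the same in each replicate number (log2 fold change −0.05, SE 0.20, adjusted p = 0.929). FECH, which puts iron into haem, and SLC25A37, the mitochondrial iron carrier, had log2 fold changes of −0.15 and −0.00, and UROD, which was higher in every pair, of 0.21 (adjusted p = 0.297, and 9.72e-07 paired). AHSP, the chaperone of free alpha globin chains, was at 2531, 2726 and 2493 CPM in the DMSO libraries and 2553, 3012 and 2652 CPM in the SGC0946 libraries (log2 fold change 0.08, SE 0.11, adjusted p = 0.741). Iron genes were similar. The transferrin receptor gene TFRC had a log2 fold change of −0.04 (adjusted p = 0.876). The ferritin genes FTL and FTH1, which store iron, were higher in every replicate number, at 0.34 and 0.66, and passed only in the paired fit (adjusted p = 0.0998 and 0.219, and 3.28e-17 and 1.11e-12 paired). PCBP1, an iron chaperone, fell by a small amount (−0.37, adjusted p = 0.0274), a call lost when a library was left out (adjusted p = 0.113 without DMSO differentiated replicate 3, 5 of 12).

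Of 25 genes of the red cell membrane and its skeleton, 3 rose and none fell (median −0.03, and 6 higher and 3 lower in the paired fit). The shares over all genes were 6.37% higher, and 12.9% higher and 12.1% lower in the paired fit. AQP1, the water channel of red cells that carries the Colton blood group, was at 6.06, 8.21 and 7.41 CPM in the DMSO libraries and 29.9, 40.8 and 37.8 CPM in the SGC0946 libraries. The lowest SGC0946 library was more than 3 times the highest DMSO library, a 5.00-fold rise (log2 fold change 2.32, SE 0.19, adjusted p = 8.25e-07). TSPO2, an erythroid cholesterol-binding protein, was at 21.0, 24.4 and 23.2 CPM in the DMSO libraries and 41.1, 51.9 and 52.1 CPM in the SGC0946 libraries (log2 fold change 1.08, SE 0.13, adjusted p = 4.64e-05). RHCE, a Rhesus antigen gene, rose by 0.48 (adjusted p = 0.0296), a call lost when a library was left out (adjusted p = 0.139 without SGC0946 differentiated replicate 1, 5 of 12). SLC4A1, the anion exchanger gene, was at 122, 122 and 108 CPM in the DMSO libraries and 154, 145 and 149 CPM in the SGC0946 libraries. It lay higher in each SGC0946 library, just outside the threshold, and passed in the paired fit (log2 fold change 0.35, SE 0.10, adjusted p = 0.0534, and 1.11e-04 paired).

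Of 24 late enzymes and genes that clear organelles, OPTN, an autophagy receptor, rose (0.52, adjusted p = 0.0218) and FBXO7, part of a ubiquitin ligase, fell (−0.41, adjusted p = 0.0328), against a median of −0.09. Each lost its call when a library was left out, at an adjusted p of 0.103 without DMSO differentiated replicate 3 (4 of 12) for OPTN and 0.115 without DMSO differentiated replicate 2 (6 of 12) for FBXO7. In the paired fit 8 were lower and 2 higher, against 12.1% and 12.9% of all genes. Without the block 6.37% of all genes were called higher and 2.01% lower. CA1, a carbonic anhydrase of red cells, was at 8205, 4527 and 6037 CPM in the DMSO libraries and 6205, 3579 and 4608 CPM in the SGC0946 libraries (log2 fold change −0.38, adjusted p = 0.429, and 3.84e-15 paired). BNIP3L, which removes mitochondria from reticulocytes, was at 534, 392 and 401 CPM in the DMSO libraries and 379, 278 and 289.7 CPM in the SGC0946 libraries (log2 fold change −0.49, adjusted p = 0.0777, and 7.48e-12 paired). Both were lower in each replicate number. FOXO3, a factor that supports late maturation, was at 54.4, 48.8 and 37.0 CPM in the DMSO libraries and 74.1, 67.0 and 58.3 CPM in the SGC0946 libraries (log2 fold change 0.51, adjusted p = 0.0551, and 2.77e-05 paired), higher in each.

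Progenitor genes moved in both directions. Of 13 tested, ITGA4 and MYC fell and CSF2RB and HHEX rose (median 0.20, and 4 higher and 3 lower in the paired fit). Over all genes 6.37% rose and 2.01% fell, and the paired fit called 12.9% higher and 12.1% lower. ITGA4, on chromosome 2 from 181457202 to 181538940, encodes CD49d, the integrin subunit that maturing erythroid cells lose from their surface. ITGA4 was at 111, 95.3 and 92.0 CPM in the DMSO libraries and 67.3, 62.4 and 61.3 CPM in the SGC0946 libraries, without overlap (log2 fold change −0.64, SE 0.11, adjusted p = 0.00118). In DMSO cells its change with differentiation did not pass the threshold (log2 fold change 0.04, SE 0.11, adjusted p = 0.848). MYC, a driver of proliferation, was at 161, 175 and 157 CPM in the DMSO libraries and 114, 132 and 126 CPM in the SGC0946 libraries (log2 fold change −0.41, SE 0.12, adjusted p = 0.0428), and its call was lost when a library was left out (adjusted p = 0.147 without DMSO differentiated replicate 2, 9 of 12). CSF2RB, the shared receptor chain of interleukin-3, was at 0.577, 1.07 and 1.17 CPM in the DMSO libraries and 6.29, 1.80 and 2.84 CPM in the SGC0946 libraries (log2 fold change 1.92, SE 0.42, adjusted p = 0.00786), and the highest of these libraries decided the call (adjusted p = 0.0615 without SGC0946 differentiated replicate 1, 1 of 12). HHEX, a homeodomain factor of early progenitors, rose by 0.62 (adjusted p = 0.0207, and 0.0945 without DMSO differentiated replicate 1, 4 of 12). KIT, the stem cell factor receptor gene, was at 14.5, 10.5 and 9.36 CPM in the DMSO libraries and 18.5, 15.5 and 12.7 CPM in the SGC0946 libraries, and the groups overlapped (log2 fold change 0.44, adjusted p = 0.239, and 0.025 paired). CD34, FLT3, MEIS1 and ERG had no counts in any of the 6 libraries.

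In erythropoietin and stem cell factor signalling, 1 of 18 genes rose and 1 fell (median 0.20, and 4 higher and 2 lower in the paired fit). Over all genes 6.37% rose and 2.01% fell, and in the paired fit 12.9% and 12.1%. EPOR, the erythropoietin receptor gene, was at 114, 148 and 113 CPM in the DMSO libraries and 84.4, 97.6 and 84.3 CPM in the SGC0946 libraries (log2 fold change −0.49, SE 0.14, adjusted p = 0.0454), a call lost when a library was left out (adjusted p = 0.208 without DMSO differentiated replicate 2, 8 of 12). STAT5A, which carries the signal of that receptor to the nucleus, was at 25.5, 30.3 and 30.7 CPM in the DMSO libraries and 45.1, 50.1 and 40.7 CPM in the SGC0946 libraries (log2 fold change 0.65, SE 0.12, adjusted p = 0.00275). The receptor gene was thus lower and the signalling gene higher in each SGC0946 library.

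Genes of DNA replication and mitosis that were called without the block were all lower. Of 20 DNA replication genes 2 fell and none rose (median −0.12, paired fit 7 lower and 2 higher), and of 21 mitotic genes 3 fell and none rose (median −0.15, paired fit 9 lower and none higher). Among all genes tested 2.01% were called lower, and 12.1% lower and 12.9% higher in the paired fit. Summed, the mitotic genes were at 3546, 3310 and 3191 CPM after DMSO and 3131, 3014 and 2978 CPM after SGC0946. CCNE1, the cyclin that starts S phase, was at 48.8, 67.9 and 62.4 CPM in the DMSO libraries and 27.3, 33.1 and 39.2 CPM in the SGC0946 libraries (log2 fold change −0.84, SE 0.18, adjusted p = 0.00684). The other called members, RRM2 (−0.35), BUB1 (−0.43), CCNB2 (−0.41) and AURKA (−0.34), each lost the call when a library was left out, at an adjusted p of 0.187 without SGC0946 differentiated replicate 3 (11 of 12), 0.153 without SGC0946 differentiated replicate 3 (10 of 12), 0.0931 without SGC0946 differentiated replicate 2 (4 of 12) and 0.133 without SGC0946 differentiated replicate 3 (11 of 12), respectively. MKI67, the proliferation marker, was at 85.9, 88.6 and 88.1 CPM in the DMSO libraries and 94.2, 92.9 and 96.1 CPM in the SGC0946 libraries, and CCNB1 was at 658, 551 and 564 CPM in the DMSO libraries and 657, 552 and 594 CPM in the SGC0946 libraries. Neither of these 2 passed the threshold in either fit.

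Of 12 cyclins and kinase inhibitors, 3 rose and 2 fell (median 0.20, paired fit 5 higher and 3 lower). Among all genes 6.37% rose and 2.01% fell, and the paired fit called 12.9% higher and 12.1% lower. The inhibitors moved in opposite directions. CDKN2C fell, as given above, whereas CDKN1A, the p21 inhibitor that p53 induces, rose from 0.385, 0.960 and 0.702 CPM to 4.19, 5.21 and 6.42 CPM (log2 fold change 2.94, SE 0.38, adjusted p = 1.06e-04). BTG1, which restrains proliferation, was at 19.9 ± 3.77 CPM after DMSO and 49.1 ± 5.37 CPM after SGC0946 (SD, n = 3; log2 fold change 1.30, SE 0.18, adjusted p = 1.85e-04). CCND1, a D-type cyclin gene, was at 34.6 ± 0.472 CPM after DMSO and 25.2 ± 1.09 CPM after SGC0946 (log2 fold change −0.46, SE 0.11, adjusted p = 0.014), a call lost when a library was left out (adjusted p = 0.0551 without SGC0946 differentiated replicate 3, 1 of 12). CDK6, a partner of the D-type cyclins, rose by 0.82 (adjusted p = 0.0285), lost likewise (adjusted p = 0.182 without SGC0946 differentiated replicate 3, 3 of 12).

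Among stress programmes, 5 of 17 genes of the amino acid response rose and none fell, with a median of 0.62, and the paired fit called 11 higher and none lower. The shares of all genes tested called higher were 6.37% and 12.9% in the paired fit. This programme is driven by ATF4 when amino acids run short or proteins misfold. NUPR1, a stress-induced nuclear protein, was at 5.38, 8.53 and 7.10 CPM in the DMSO libraries and 44.7, 51.7 and 54.5 CPM in the SGC0946 libraries, a 7.19-fold rise (log2 fold change 2.85, SE 0.21, adjusted p = 3.47e-07). TRIB3, a pseudokinase, was at 6.83, 8.96 and 9.67 CPM in the DMSO libraries and 18.3, 25.7 and 29.0 CPM in the SGC0946 libraries (log2 fold change 1.52, SE 0.24, adjusted p = 6.23e-04). SLC3A2, the heavy chain of amino acid transporters, was at 219, 267 and 249.8 CPM in the DMSO libraries and 348, 374 and 405 CPM in the SGC0946 libraries (log2 fold change 0.62, SE 0.13, adjusted p = 0.00596). All 3 lay higher in each SGC0946 library. DDIT4, an inhibitor of mTOR signalling (0.77, adjusted p = 0.0126), and DDIT3, the factor CHOP (0.79, adjusted p = 0.0171), also rose, and each lost its call when a library was left out (adjusted p = 0.0719 without SGC0946 differentiated replicate 3, 4 of 12 and 0.0913 without DMSO differentiated replicate 3, 4 of 12).

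Of 18 targets of p53 the paired fit called 6 higher and none lower, against 12.9% of all genes higher. Without the block 3 rose and none fell (median 0.28), against 6.37% of all genes higher. Beside CDKN1A they were GDF15, a secreted factor that erythroblasts make, at 19.6, 29.9 and 21.8 CPM in the DMSO libraries and 52.8, 57.1 and 57.6 CPM in the SGC0946 libraries (log2 fold change 1.24, SE 0.20, adjusted p = 6.54e-04), and TP53I3, an oxidoreductase, at 29.5, 32.1 and 29.0 CPM in the DMSO libraries and 40.9, 48.2 and 49.4 CPM in the SGC0946 libraries (log2 fold change 0.61, SE 0.12, adjusted p = 0.00475). In both, no library of one group reached the other. The viral oncogenes of the line act on p53, and these values describe the line in that state.

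Of 12 interferon-stimulated genes, 6 rose and none fell, with a median of 0.77, and the paired fit called 8 higher, against 6.37% and 12.9% of all genes tested. IFITM2, which hinders the entry of viruses, was at 81.2, 89.1 and 77.7 CPM in the DMSO libraries and 204, 214 and 199 CPM in the SGC0946 libraries (log2 fold change 1.31, SE 0.10, adjusted p = 5.94e-07). IFITM3, its neighbour, was at 8.46, 7.04 and 7.41 CPM in the DMSO libraries and 19.0, 23.5 and 19.3 CPM in the SGC0946 libraries (log2 fold change 1.43, SE 0.20, adjusted p = 2.62e-04). These genes of 1 family share sequence, and reads may be split between them. IFIT3 was at 3.27, 3.31 and 2.81 CPM in the DMSO libraries and 9.79, 15.3 and 10.4 CPM in the SGC0946 libraries (log2 fold change 1.92, SE 0.29, adjusted p = 3.68e-04). IFIT2 rose by 1.89 (adjusted p = 0.00181). IFI6 rose by 1.06 (adjusted p = 0.0383), a call lost when a library was left out (adjusted p = 0.164 without SGC0946 differentiated replicate 2, 7 of 12). IFITM1 had 3 counts after DMSO and was at 1.40, 1.98 and 0.746 CPM after SGC0946. ISG15, a ubiquitin-like protein that interferon strongly induces, was at 84.7, 108 and 132 CPM in the DMSO libraries and 101, 108 and 136 CPM in the SGC0946 libraries (0.08, adjusted p = 0.872), the lowest log2 fold change of the 12, and MX2, IFI27 and IRF7 had no counts in these 6 libraries.

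Linker and replication-independent histones gave 2 rises of 13 tested (median 0.26, paired fit 8 higher and 2 lower). The shares over all genes were 6.37% higher, and 12.9% higher and 12.1% lower in the paired fit. H1-2, a linker histone gene, was at 47.7, 45.3 and 49.5 CPM in the DMSO libraries and 62.7, 71.0 and 68.9 CPM in the SGC0946 libraries (log2 fold change 0.51, SE 0.11, adjusted p = 0.00933), a call that sat at the threshold when a library was left out (adjusted p = 0.0503 without SGC0946 differentiated replicate 2, 1 of 12). Of 20 sterol synthesis genes, HMGCS1, which makes the precursor of mevalonate, was the only one called without the block (log2 fold change 0.76, SE 0.14, adjusted p = 0.0026), against a median of −0.04, and the paired fit called 2 higher and 3 lower.

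**Figure D3:**
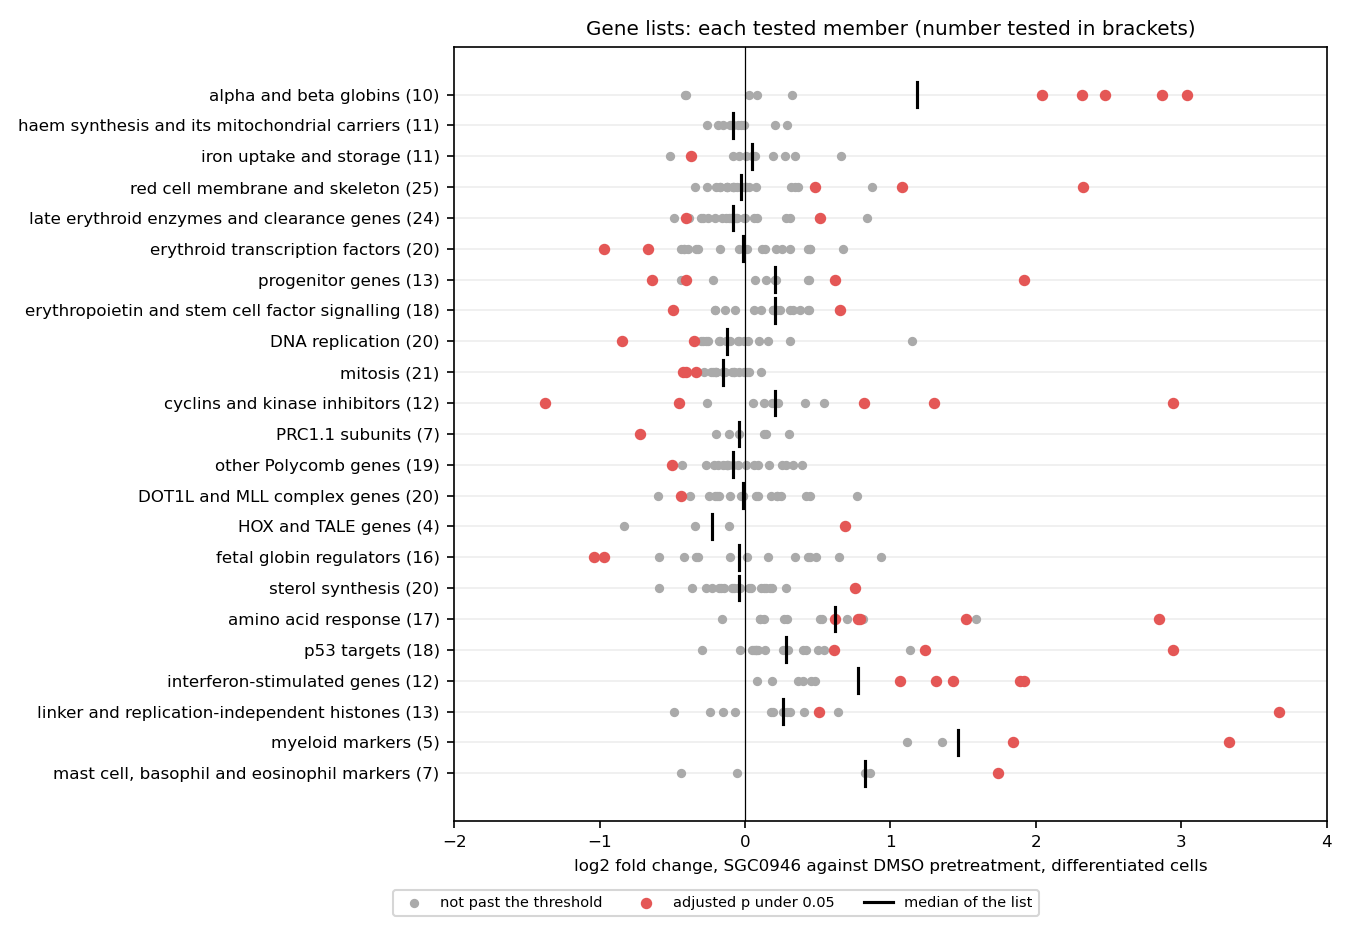
Log2 fold change of SGC0946 against DMSO pretreatment in differentiated cells for each tested member of 23 gene lists, with called members in red, the others in grey and the median of the list as a bar; members with 3 counts or fewer in a group are left out. The medians of the amino acid response, interferon and globin lists lie to the right of 0. Those of haem synthesis and Polycomb lie close to 0, and that of mitosis lies at −0.15.

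The target of the inhibitor and its partners were examined as transcripts. SGC0946 blocks the enzyme, so the level of DOT1L is no check of the labels. DOT1L was at 9.81, 20.7 and 16.6 CPM in the DMSO libraries and 11.0, 14.4 and 14.2 CPM in the SGC0946 libraries, with overlap (log2 fold change −0.25, SE 0.23, adjusted p = 0.617). Of 20 genes of the DOT1L and MLL complexes, only PSIP1, a chromatin tether of MLL, was called without the block (−0.44, adjusted p = 0.0409), and that was lost when a library was left out (adjusted p = 0.147 without SGC0946 differentiated replicate 1, 7 of 12). The paired fit called 1 higher and 3 lower. MLLT3, the AF9 protein that brings DOT1L to genes, was at 180.0, 103 and 121 CPM in the DMSO libraries and 111, 79.6 and 76.1 CPM in the SGC0946 libraries (log2 fold change −0.60, adjusted p = 0.146, and 1.52e-09 paired). PRC1.1 is a variant Polycomb complex that ubiquitinates histone H2A. Of its 7 subunit genes tested, RNF2, the ubiquitin ligase subunit RING1B, was at 12.1, 12.2 and 10.5 CPM in the DMSO libraries and 7.51, 6.83 and 6.72 CPM in the SGC0946 libraries (log2 fold change −0.72, SE 0.18, adjusted p = 0.0171), and its call was lost when a library was left out (adjusted p = 0.0709 without SGC0946 differentiated replicate 3, 3 of 12). BCOR (−0.04), BCORL1 (0.30), KDM2B (0.15), YAF2 (−0.20), SKP1 (0.13) and USP7 (−0.11) did not pass the threshold, of which SKP1 did in the paired fit (adjusted p = 0.0216). PCGF1, its defining subunit, had only 13 counts after DMSO and 6 after SGC0946 and was not tested, and RING1 and RYBP were listed at 0 in the 6 libraries. EZH2, the H3K27 methyltransferase of Polycomb, was at 46.5, 50.2 and 40.9 CPM in the DMSO libraries and 33.6, 31.3 and 32.2 CPM in the SGC0946 libraries (log2 fold change −0.50, SE 0.13, adjusted p = 0.0207), lost when a library was left out (adjusted p = 0.0921 without DMSO differentiated replicate 2, 3 of 12), and it was the only gene of 19 further Polycomb genes called without the block. The paired fit called 2 of the 19 higher and 2 lower. Of 4 HOX and TALE genes tested, HOXB7 rose (log2 fold change 0.68, SE 0.13, adjusted p = 0.00348), the paired fit called 1 higher and 1 lower, and the HOXA members were at or near 0. Beside the counts of this paragraph, 6.37% of all genes rose and 2.01% fell, and the paired fit called 12.9% higher and 12.1% lower.

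Markers of other blood lineages were examined because fewer cells of a type and less RNA per cell cannot be told apart in bulk libraries. Of 20 myeloid markers 5 were tested and 2 rose, against 6.37% of all genes tested. The summed level of the list was 7.68 to 8.08 CPM after DMSO and 21.5 to 29.1 CPM after SGC0946. CST7, which encodes cystatin F, made up most of it, at 4.90, 4.27 and 4.76 CPM in the DMSO libraries and 13.6, 19.9 and 16.6 CPM in the SGC0946 libraries (log2 fold change 1.84, SE 0.23, adjusted p = 8.74e-05). CD33 was at 0.160 ± 0.278 CPM after DMSO and 1.71 ± 0.869 CPM after SGC0946, on 5 and 30 counts (log2 fold change 3.33, SE 0.78, adjusted p = 0.0127), with its call lost when a library was left out (adjusted p = 0.0718 without SGC0946 differentiated replicate 2, 2 of 12). LYZ, the lysozyme gene, was at 0.983 ± 0.364 CPM after DMSO and 2.56 ± 1.01 CPM after SGC0946 (1.36, adjusted p = 0.0753, and 0.0369 paired), while MPO, ELANE, PRTN3, AZU1 and ITGAM were at 0 in all 6. CTSG, another neutrophil granule gene of the list, had 11 counts after DMSO and 3 after SGC0946. Mast cell, basophil and eosinophil markers summed to 258, 493 and 437 CPM after DMSO and 506, 929 and 785 CPM after SGC0946, higher in each replicate number. Of the 15, 7 were tested and 2 rose, against 6.37% of all genes. The paired fit called 4 higher and 1 lower, against 12.9% and 12.1% of all genes. PRG2, a granule protein of eosinophils, was at 25.5, 48.5 and 42.5 CPM in the DMSO libraries and 86.2, 162 and 141 CPM in the SGC0946 libraries (log2 fold change 1.74, SE 0.30, adjusted p = 0.00137). The tryptase genes TPSAB1 and TPSB2, near copies of each other, were at 0.86 and 0.82 on the log2 scale (adjusted p = 0.106 and 0.177, and 7.22e-17 and 8.28e-19 paired). PRG2, TPSAB1 and TPSB2 lay higher after SGC0946 in each replicate number, while the lowest log2 fold change of the 7 tested was −0.44. In undifferentiated cells the list summed to 677, 1324 and 1129 CPM after DMSO and 702, 1243 and 1125 CPM after SGC0946. HPGDS, a prostaglandin D synthase of mast cells, had 2 counts after DMSO and was at 3.15, 3.23 and 2.98 CPM after SGC0946, while CPA3, EPX and PRG3 had none in these 6. Lymphoid markers summed to at most 4.18 CPM, with CD3D at 3 counts after DMSO and 2.97, 1.26 and 2.84 CPM after SGC0946, and CD3E and MS4A1 at 0. Megakaryocyte markers summed to 4.33 to 4.91 CPM after DMSO and 4.02 to 5.03 CPM after SGC0946, with PF4, PPBP and GP6 at 0 and the 1 member tested not called. Of 17 MHC genes 2 were tested and neither was called. The part of other cell types in the results above was not tested.

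Whether the response to SGC0946 depended on differentiation was tested as the difference between the responses of differentiated and undifferentiated cells. In undifferentiated cells of the same experiment 380 genes (3.86%) differed after SGC0946, 306 higher (3.11%) and 74 lower (0.751%), and 1518 (15.4%) in the paired fit. The 2 responses differed from each other in 47 genes (0.477%), 39 with a higher log2 fold change in differentiated cells (0.396%) and 8 with a lower one (0.0812%), and in 887 genes (9.01%) in the paired fit, 387 higher (3.93%) and 500 lower (5.08%). The count without the block ranged from 23 to 46 when single libraries were left out, lowest without SGC0946 undifferentiated replicate 3. Most genes called in one state were therefore not shown to respond differently in the other.

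**Figure D4:**
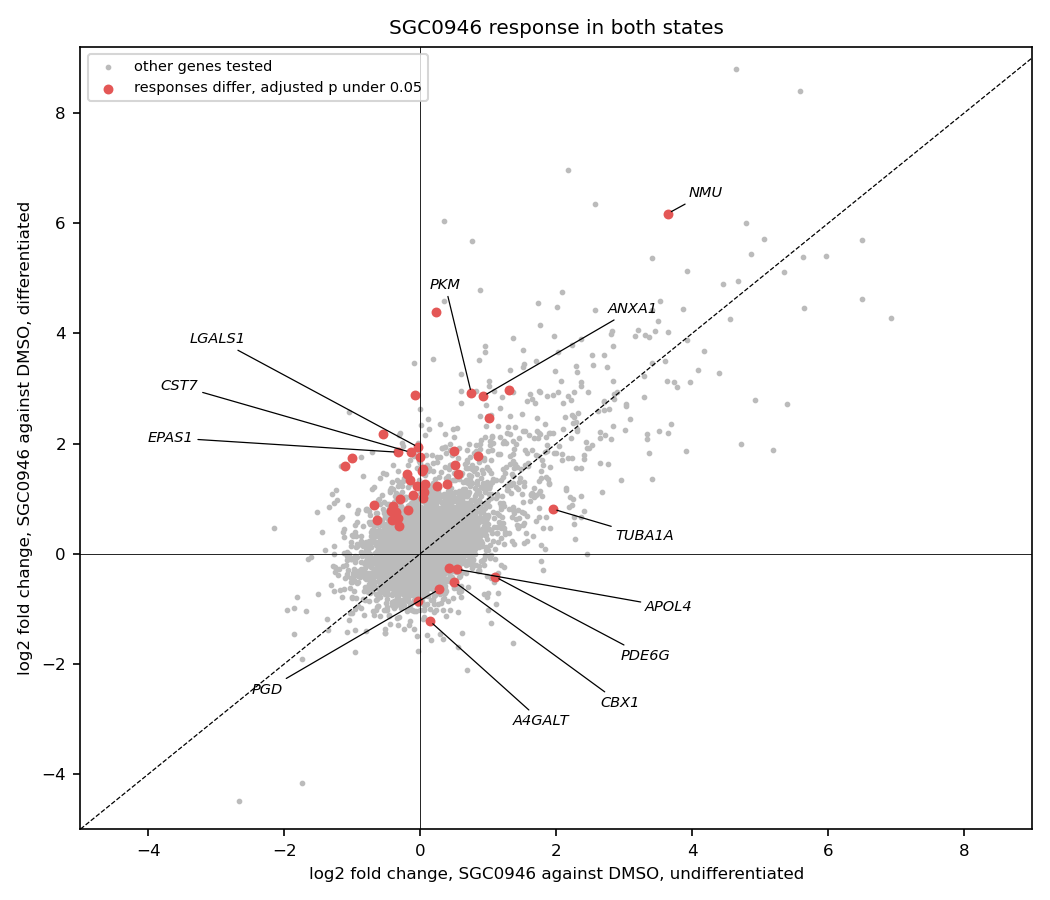
Log2 fold change of SGC0946 against DMSO in undifferentiated cells (horizontal axis) and in differentiated cells (vertical axis) for the 9848 genes tested, with the 47 genes whose responses differed in red; the dashed line marks equal responses. NMU lies far up on the right, PKM, EPAS1, LGALS1, ANXA1 and CST7 above the line, and A4GALT, PGD, CBX1, PDE6G, APOL4 and TUBA1A below it.

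Several genes that fell with differentiation in DMSO cells were higher in differentiated SGC0946 cells. The DMSO differentiated libraries enter both of these comparisons, and the values are given side by side. PKM, on chromosome 15 from 72199029 to 72231819, encodes the pyruvate kinase of most dividing cells. It was at 135, 211 and 189 CPM in undifferentiated and 14.4, 19.4 and 24.5 CPM in differentiated DMSO cells, and at 241, 338 and 322 CPM and 131, 157 and 153 CPM in SGC0946 cells. The fall with differentiation was thus deep after DMSO (−3.19 on the log2 scale) and shallower after SGC0946 (−1.03), and the responses differed by 2.16 (adjusted p = 0.00147). LGALS1, which encodes galectin-1, was at 673, 650.4 and 797 CPM and 109.9, 115 and 139 CPM after DMSO and at 657, 622 and 799 CPM and 453, 396 and 543 CPM after SGC0946. In undifferentiated cells its groups overlapped, and in differentiated cells every SGC0946 library was over 2 times every DMSO library (difference 1.96, adjusted p = 6.15e-04). TIMP1 showed the like pattern, with undifferentiated means of 1864 ± 90.6 CPM after DMSO and 1726 ± 72.2 CPM after SGC0946 (difference 1.17, adjusted p = 0.0014). PKM, LGALS1 and TIMP1 passed whichever library was left out.

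CST7 was at 20.8 ± 5.42 CPM after DMSO and 18.9 ± 4.16 CPM after SGC0946 (SD, n = 3) in undifferentiated cells, and its responses differed by 1.98 (adjusted p = 0.00658). EPAS1, the hypoxia-inducible factor HIF-2 alpha, was at 7.50, 7.02 and 7.64 CPM and 4.04, 4.48 and 3.59 CPM after DMSO, and at 3.60, 7.52 and 6.40 CPM and 10.3, 18.9 and 14.2 CPM after SGC0946. With differentiation it changed by −0.88 after DMSO (adjusted p = 0.0309) and by 1.29 after SGC0946 (difference 2.17, adjusted p = 0.0101). ANXA1, a phospholipid-binding protein that dampens inflammation, was at 10.4 ± 0.623 CPM after DMSO and 19.9 ± 2.53 CPM after SGC0946 in undifferentiated and 3.60 ± 1.83 CPM after DMSO and 26.8 ± 6.99 CPM after SGC0946 in differentiated cells (difference 1.94, adjusted p = 0.0343), a call lost without 8 of the 12 libraries in turn. HHEX (1.25, adjusted p = 0.00979) and STAT5A (0.98, adjusted p = 0.0149) had higher responses in differentiated cells, as did H1-2 (0.82, adjusted p = 0.0299). In undifferentiated cells HHEX fell (−0.63, adjusted p = 0.0124), while STAT5A (−0.33, adjusted p = 0.197, and 0.0172 paired) and H1-2 (−0.32, adjusted p = 0.174, and 0.00279 paired) were called lower only in the paired fit. With a library left out in turn the difference passed in 11 of 12 fits for STAT5A (highest adjusted p 0.0665 without SGC0946 undifferentiated replicate 3) and in 2 of 12 for H1-2 (0.109 without SGC0946 differentiated replicate 3). NMU rose in both states, at 1.42 ± 0.517 CPM after DMSO and 17.4 ± 4.80 CPM after SGC0946 in undifferentiated cells, and the difference of 2.54 (adjusted p = 0.0194) was lost without 2 of the 12 libraries in turn, at most to an adjusted p of 0.107 without DMSO undifferentiated replicate 1.

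The opposite pattern was seen in A4GALT. A4GALT was at 10.1, 10.3 and 8.63 CPM in undifferentiated and 22.3, 29.3 and 29.0 CPM in differentiated DMSO cells. In SGC0946 cells it was at 8.55, 10.5 and 12.7 CPM and 10.7, 14.2 and 9.85 CPM. The rise with differentiation was 1.48 after DMSO and 0.12 after SGC0946 on the log2 scale, and the responses differed by −1.36 (adjusted p = 0.0328). PGD, an enzyme of the pentose phosphate pathway, was at 141 ± 3.76 CPM after DMSO and 171 ± 8.33 CPM after SGC0946 in undifferentiated and 319 ± 23.1 CPM after DMSO and 204 ± 12.1 CPM after SGC0946 in differentiated cells (difference −0.92, adjusted p = 0.00658). CBX1, a heterochromatin protein, was higher after SGC0946 in undifferentiated cells (0.50, adjusted p = 0.0196) and lower in differentiated cells (−0.51), with no overlap in either (difference −1.02, adjusted p = 0.00903). Its fall in differentiated cells was lost when a library was left out (adjusted p = 0.0609 without SGC0946 differentiated replicate 2, 2 of 12), whereas the difference passed each time. TUBA1A, an alpha tubulin, rose in both states, by 1.95 in undifferentiated and 0.81 in differentiated cells (difference −1.14, adjusted p = 0.0139). PDE6G (−1.52, adjusted p = 0.0368) and APOL4 (−0.83, adjusted p = 0.0421) had lower responses in differentiated cells too, and APOL4 was itself called lower in differentiated cells only in the paired fit (−0.28, adjusted p = 0.189, and 0.00241 paired). With a library left out in turn the difference passed in only 3 of 12 fits for A4GALT (highest adjusted p 0.126 without SGC0946 undifferentiated replicate 3), 3 for PDE6G (0.129 without SGC0946 undifferentiated replicate 2) and 1 for APOL4 (0.137 without SGC0946 undifferentiated replicate 2), and in 10 for TUBA1A (0.0601 without SGC0946 undifferentiated replicate 2).

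**Figure D5:**
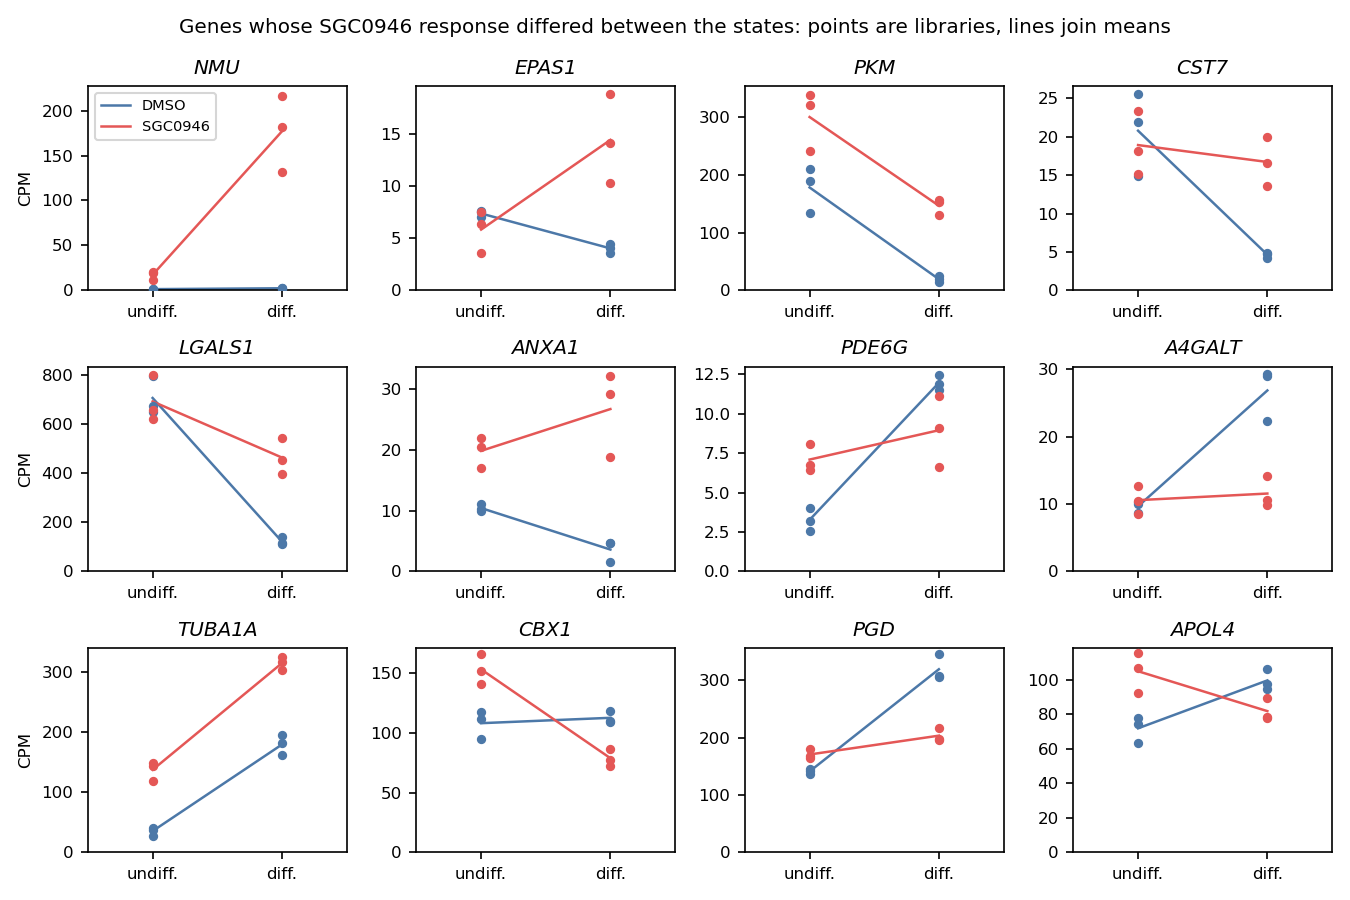
CPM of 12 genes whose SGC0946 response differed between the states, in undifferentiated and differentiated libraries after DMSO (blue) and SGC0946 (red), with lines joining the means of 3. PKM, CST7, LGALS1 and ANXA1 fall with differentiation after DMSO and hold up more after SGC0946, and A4GALT and PGD rise after DMSO and little after SGC0946.

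For most of the leading genes of differentiated cells the difference between the states did not pass the threshold. The gamma globin genes had also risen in undifferentiated cells. HBG2 went from 35.9, 31.8 and 34.8 CPM to 219, 149.8 and 156 CPM, and HBG1 from 33.9, 21.7 and 27.6 CPM to 137, 99.6 and 137 CPM. The differences of 0.68 and 0.69 gave an adjusted p of 0.423 and 0.342, and of 2.13e-08 and 1.76e-07 in the paired fit. BCL11A was lower in undifferentiated cells too, at 12.1, 12.4 and 13.6 CPM against 6.60, 8.75 and 9.04 CPM (log2 fold change −0.64, adjusted p = 0.0342). HBD rose by 1.02 there, and the difference of 1.02 fell just short (adjusted p = 0.0533, and 4.79e-19 paired). ITGA4 had a log2 fold change of −0.32 (adjusted p = 0.145, and 0.00128 paired) in undifferentiated cells, and the difference of −0.32 did not pass (adjusted p = 0.544). AQP1 (1.36, adjusted p = 0.165, and 0.0122 paired) and NUPR1 (1.64, adjusted p = 0.0602, and 2.26e-04 paired) passed only in the paired fit.

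The undifferentiated cells share no library with the differentiated ones, so the calls can be set side by side. They are not independent, since same-numbered libraries deviated together across the states and both comparisons came from 1 fit. Of the genes called, 256 were called in both states and 252 of these in the same direction, which was 30.5% of the 825 and 66.3% of the 380. Across the 9848 genes the log2 fold changes of the states had a Pearson correlation of 0.65 and a Spearman correlation of 0.34, as a description across genes that are not independent.

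In the separate experiment of undifferentiated cells after 168 h, 824 of 10099 genes (8.16%) differed after SGC0946, 511 higher (5.06%) and 313 lower (3.1%). Of the 825 genes called in differentiated cells 742 were tested there, and 312 were called in the same direction, 42.0% of the 742 and 40.7% of the 767 genes called there among those tested in both. Over the 9435 genes in both tables the Pearson correlation was 0.63 and the Spearman correlation 0.35. Group means of the 4 DMSO and the 4 SGC0946 libraries are given here within that table alone. NMU went from 1.18 to 19.6 CPM (log2 fold change 3.86, adjusted p = 2.91e-07). HBG2 went from 80.3 to 213 CPM (log2 fold change 1.40, adjusted p = 4.05e-09), and HBG1 from 32.1 to 89.8 CPM (log2 fold change 1.49, adjusted p = 1.99e-08). CDKN2C went from 42.1 to 17.2 CPM (log2 fold change −1.29, adjusted p = 6.69e-07), while BCL11A went from 17.3 to 11.6 CPM (log2 fold change −0.58, adjusted p = 0.0967), outside the threshold. The 2 gamma globin genes and CDKN2C thus moved in the direction seen in differentiated cells. The adult alpha globin genes were lower, HBA1 going from 1297 to 824 CPM (log2 fold change −0.66, adjusted p = 4.72e-07) and HBA2 from 3019 to 1973 CPM (log2 fold change −0.61, adjusted p = 8.86e-07). ITGA4 went from 149.7 to 138 CPM (log2 fold change −0.12, adjusted p = 0.552) and did not pass, and LGALS1 went from 248 to 368 CPM (log2 fold change 0.57, adjusted p = 3.19e-04). The fetal globin, NMU and CDKN2C differences of differentiated cells were thus also present in a separate culture experiment without differentiation, and that of ITGA4 was not detected there.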

How the data were processed

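According to the methods and the submitters' processing notes, the authors demultiplexed reads with bcl2fastq, trimmed them with bbmap, aligned them to GRCh38 with STAR and deposited its counts of reads per gene, as raw whole numbers with replicates kept apart. The strand setting is not stated, so overlapping and antisense genes cannot be told apart. Reads that named no gene were left out and made up at most 0.000318% of each of the 12 libraries. The authors' own statistics came from Degust, and their low-count filter was kept here.

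From the deposited counts, genes that reached 2 CPM in 2 or more of the 12 libraries were tested with edgeR 4.0.16 in R 4.3.3 (TMM scaling, quasi-likelihood test, 1 coefficient per group, Benjamini-Hochberg over all genes tested, called at an adjusted p under 0.05). TMM-scaled sizes also underlie the CPM. No fold change is given for a gene with 3 counts or fewer in either group. Means are given ± SD, n = 3. The 168 h table was fitted alone. Scripts were tested on simulated data.

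Samples were grouped by their labels. Same-numbered libraries deviated together (correlations of 0.44 to 0.84 over 4254 genes above 20 CPM, against −0.73 to 0.22 for different numbers), which is a pairing read from the data and not from the labels. Genes were named by a rule: the 15 largest rises and falls at 10 CPM without overlap, 6 each way for the difference of responses, the 3 most abundant each way, genes the study names and leading members of gene lists. Members and lists were chosen with earlier results of these data known, so no set test was run. Alternatives were other scalings and filters, DESeq2 1.42.0, limma 3.58.1 (voom), the replicate block, single libraries left out and, chosen after seeing the data, libraries thinned to 1 depth and replicate 1 left out of every group. Gene positions on GRCh38 come from GENCODE v44. Some items that the rule names are not reported here.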

Additional observations from a re-analysis of the deposited data

Results flagged for a closer look

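Of 132 genes examined, 16 gave an SGC0946 response that differed between differentiated and undifferentiated cells by the test of the difference itself (edgeR quasi-likelihood, adjusted p under 0.05). The difference of log2 fold changes, differentiated minus undifferentiated, was positive for NMU (2.54), EPAS1 (2.17), PKM (2.16), CST7 (1.98), LGALS1 (1.96), ANXA1 (1.94), HHEX (1.25), TIMP1 (1.17), STAT5A (0.98) and H1-2 (0.82). It was negative for PDE6G (−1.52), A4GALT (−1.36), TUBA1A (−1.14), CBX1 (−1.02), PGD (−0.92) and APOL4 (−0.83). EPAS1, PKM, CST7, LGALS1, HHEX, TIMP1, CBX1 and PGD passed whichever 1 of the 12 libraries was left out, whereas the other 8 lost the call without at least 1 library. In the 168 h experiment, 34 groups of 4 values of leading genes were examined for a value far from the rest and none was found. The other groups have 3 libraries and were not examined for this.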

How the results depend on the processing

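Counts of called genes in differentiated cells stayed within 1.5 times of 825 under other scalings, DESeq2, limma-voom, no filter, 6 libraries alone, thinning to 1 depth (691) and replicate 1 left out of every group (896). With a filter of 10 CPM, which tests fewer genes, 514 were called in differentiated and 237 in undifferentiated cells. With the replicate block the counts were 2455 and 1518 (2663 and 1440 when the block was fitted to the 6 libraries compared), 887 for the difference of responses, 3622 for differentiation after DMSO and 141 members of the gene lists against 56 (147 with 6 libraries). The block also moved the share of higher calls in differentiated cells from 76% to 51.7%, and to 48.9% with 6 libraries. The 2455 calls with the block exceed those of the fit without it, whose spread holds the differences between replicate numbers. The difference of responses was 125 genes by DESeq2 and 121 with no filter, against 47; the cause was not tested. With plain library sizes differentiation after DMSO gave 512 higher and 1234 lower genes, with a median log2 fold change of −0.12. Leaving out 1 library gave 526 to 907 genes in differentiated cells, 256 to 395 in undifferentiated cells, 23 to 46 for the difference of responses, 1038 to 1626 for differentiation after DMSO and 566 to 1024 at 168 h. The difference of responses fell by more than 1.5 times without DMSO differentiated replicate 2 (30) or 3 (29), SGC0946 differentiated replicate 3 (26), and SGC0946 undifferentiated replicate 2 (27) or 3 (23). In the 168 h table the replicate numbers did not pair the libraries (correlations of −0.15 to 0.10), and the block called 682 genes against 824. Of 132 genes examined, 78 kept their status, whether called or not called, under every alternative. The other 54 changed it under at least 1, and no call reversed its direction. Calls of named genes that the block changed are given with the results. The depth of the SGC0946 libraries limits genes under about 1 CPM, and 3 libraries a group limit small changes.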
